A study of Mus musculus with 8 samples.

Results

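A set of 10 interferon-inducible GTPases was followed in naive B cells from mouse spleen, chosen by gene symbol: the guanylate-binding proteins Gbp2, Gbp3, Gbp4, Gbp6, Gbp7 and Gbp9 and the immunity-related GTPases Irgm1, Irgm2, Igtp and Iigp1. All 10 were found among the 23302 entries of the expression table, and all 10 passed the filter for testing, a mean of at least 10 normalized counts. RNA was sequenced from 8 libraries of C57BL/6 mice in 4 groups of 2: WT mice without a tumor, WT mice with a tumor, B-EBi3- mice without a tumor and B-EBi3- mice with a tumor. B-EBi3- marks mice whose B cells lack Ebi3, the chain shared by the cytokines IL-35 and IL-27, and the series title names pancreatic cancer. The labels give no age, no animal numbers and no account of how the deletion was made. They call the groups without a tumor "WT" in tumor status, and every tumor comparison rests on reading that entry as nontumor.

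Interferon-inducible GTPases are among the most strongly induced products of interferon gamma, which signals through its receptor, the kinases JAK1 and JAK2 and the transcription factor IRF1. Guanylate-binding proteins are dynamin-like GTPases that assemble on the vacuoles of intracellular pathogens and on cytosolic bacteria. Immunity-related GTPases act on the same vacuoles, and fall into effectors such as Iigp1, which coat the vacuole, and the regulators Irgm1, Irgm2 and Igtp (also called Irgm3), which sit on the cell's own membranes and hold the effectors inactive. They are best known from macrophages and fibroblasts, and B cells express them too.

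The Gbp genes lie in 2 clusters. In GRCm38, Gbp7 (chr3:142530336-142550151), Gbp3 (chr3:142560016-142573213) and Gbp2 (chr3:142620663-142638008) share 1 stretch of chromosome 3. Gbp9 (chr5:105076464-105110357), Gbp4 (chr5:105115767-105139586) and Gbp6 (chr5:105270702-105295871) share another on chromosome 5. Irgm1 (chr11:48865245-48871420) lies apart from Igtp (chr11:58199556-58207592) and its neighbour Irgm2 (chr11:58214977-58222783).

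Promoters were available from RefSeq (GRCm38.p6) for 6 members, as windows from 250 bases before to 50 after each annotated start. They are shown because all 6 carried the same interferon-type motif while their transcripts moved in different directions. The motif searched was the core of the interferon-stimulated response element, GAAA, any 2 bases and GAAA again, on both strands. It stood in 6 of the 7 promoters of these 6 genes, against 3.44% of all 32851 promoters of that length. The stretches below run 5′ to 3′ on the strand of the gene and end at the base before its outermost RefSeq start, with the motif in capitals (a match on the opposite strand reads as TTTC, any pair of bases, TTTC).
Gbp2, chr3:142620553-142620662, plus strand: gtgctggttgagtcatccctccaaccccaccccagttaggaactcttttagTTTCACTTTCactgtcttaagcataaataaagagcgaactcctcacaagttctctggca
Gbp3, chr3:142559906-142560015, plus strand: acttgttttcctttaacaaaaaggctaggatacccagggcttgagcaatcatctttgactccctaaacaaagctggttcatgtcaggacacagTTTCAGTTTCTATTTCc
Gbp7, chr3:142530226-142530335, plus strand: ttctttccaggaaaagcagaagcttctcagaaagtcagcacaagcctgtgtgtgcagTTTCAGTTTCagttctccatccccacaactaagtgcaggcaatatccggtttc
Irgm1, chr11:48871421-48871530, minus strand: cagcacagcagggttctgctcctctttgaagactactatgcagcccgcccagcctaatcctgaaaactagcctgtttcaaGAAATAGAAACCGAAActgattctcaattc
Irgm2, chr11:58214867-58214976, plus strand: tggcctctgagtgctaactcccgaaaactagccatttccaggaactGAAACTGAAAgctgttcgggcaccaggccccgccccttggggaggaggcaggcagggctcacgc
Igtp, chr11:58199446-58199555, plus strand: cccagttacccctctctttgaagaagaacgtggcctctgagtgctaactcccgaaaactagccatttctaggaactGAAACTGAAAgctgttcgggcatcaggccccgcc

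Counted from the start that defines each promoter window, the matches began between 64 bases (Irgm2) and 24 bases (the second match of Irgm1) before it. For Gbp3 that start is not the outermost one: its matches began 45 and 39 bases before it, and the stretch shown ends 29 bases before it. Gbp3 and Irgm1 each held 2 overlapping matches. The stretches of Irgm2 and Igtp were near copies, with 78 of 80 bases identical when aligned on the match without gaps, whereas that of Gbp2 shared 29 of 68 with Gbp3. A second pattern, the gamma-activated sequence TTCNNNGAA, stood in Gbp7, Irgm2 and Igtp and in 8.3% of all promoters, and overlapped no match of the first in these genes. Among other interferon-inducible GTPases with a promoter in the table, 5 of 6 genes held the first motif. A match describes letters in the window and not a bound site.

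Depth was 21291892 to 28297319 reads per library. The WT tumor libraries stood apart from the other 6 before any GTPase was considered: Xist, which marks female cells, averaged 22970 ± 4549 normalized counts there (SD, n = 2) and at most 16.5 in the other groups, and only their titles begin with IV. Every difference between WT tumor and another group therefore carries the tumor or genotype, the sex and the title series together, which cannot be told apart. Comparisons among the other 3 groups carry no difference in title series, nor in sex by Xist. Ebi3 does not settle the genotype labels. It was at 182 ± 26.4 normalized counts in WT tumor and 9.85 ± 1.63 in B-EBi3- tumor. Without a tumor it was as low in WT (9.96 ± 1.44) as in B-EBi3- (12.1 ± 0.931). Its high value in WT tumor comes together with the sex and title series of those libraries. The 7 B cell markers took 0.713 to 0.733% of the reads in WT nontumor, 1.08 to 1.09% in WT tumor, 0.779 to 0.826% in B-EBi3- nontumor and 0.941 to 0.947% in B-EBi3- tumor. The 11 monocyte and macrophage markers mark cells that make these GTPases in quantity. They took 0.373 to 0.399%, 0.0442 to 0.0498%, 0.348 to 0.437% and 0.232 to 0.234% in the same order. None of them was at 0 in any group. The 7 erythroid markers took 0.561 to 0.62%, 0.0725 to 0.104%, 1.001 to 1.498% and 0.275 to 0.284%.

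Together the 10 genes took a small part of the RNA, which was largest in WT tumor. Their reads made up 0.0363 ± 0.00294% of all reads in WT nontumor, 0.081 ± 0.00533% in WT tumor, 0.0366 ± 0.0038% in B-EBi3- nontumor and 0.0467 ± 0.000302% in B-EBi3- tumor (SD, n = 2 each). In bulk RNA, fewer cells of a type and less RNA per cell cannot be told apart.

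Levels of different genes were compared as normalized counts per kb of the longest coding transcript. In WT nontumor libraries Irgm1 (mean 856, libraries 809 and 904 per kb) and Gbp3 (843, 825 and 862) stood highest and overlapped. Igtp (557 per kb) and Gbp2 (521) followed without overlap. Gbp9 (309, libraries 258 and 360) overlapped Irgm2 (258, 250 and 266). Gbp4 (151 per kb) overlapped Gbp6 (127), which overlapped Iigp1 (119), and Gbp7 was lowest at 73.3. The order in B-EBi3- nontumor differed from this in its first 2 genes, Gbp3 and Irgm1, which again overlapped. In WT tumor Irgm1 led at 1502 per kb (1481 and 1522), Gbp9 stood next at 1070 (994 and 1147) and Iigp1 was last at 22.2 (18.4 and 26). In B-EBi3- tumor the order was Irgm1, Gbp3, Igtp, Gbp9, Gbp2, Gbp4, Irgm2, Gbp6, Gbp7 and Iigp1, and no neighbours overlapped.

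**Figure D1:**
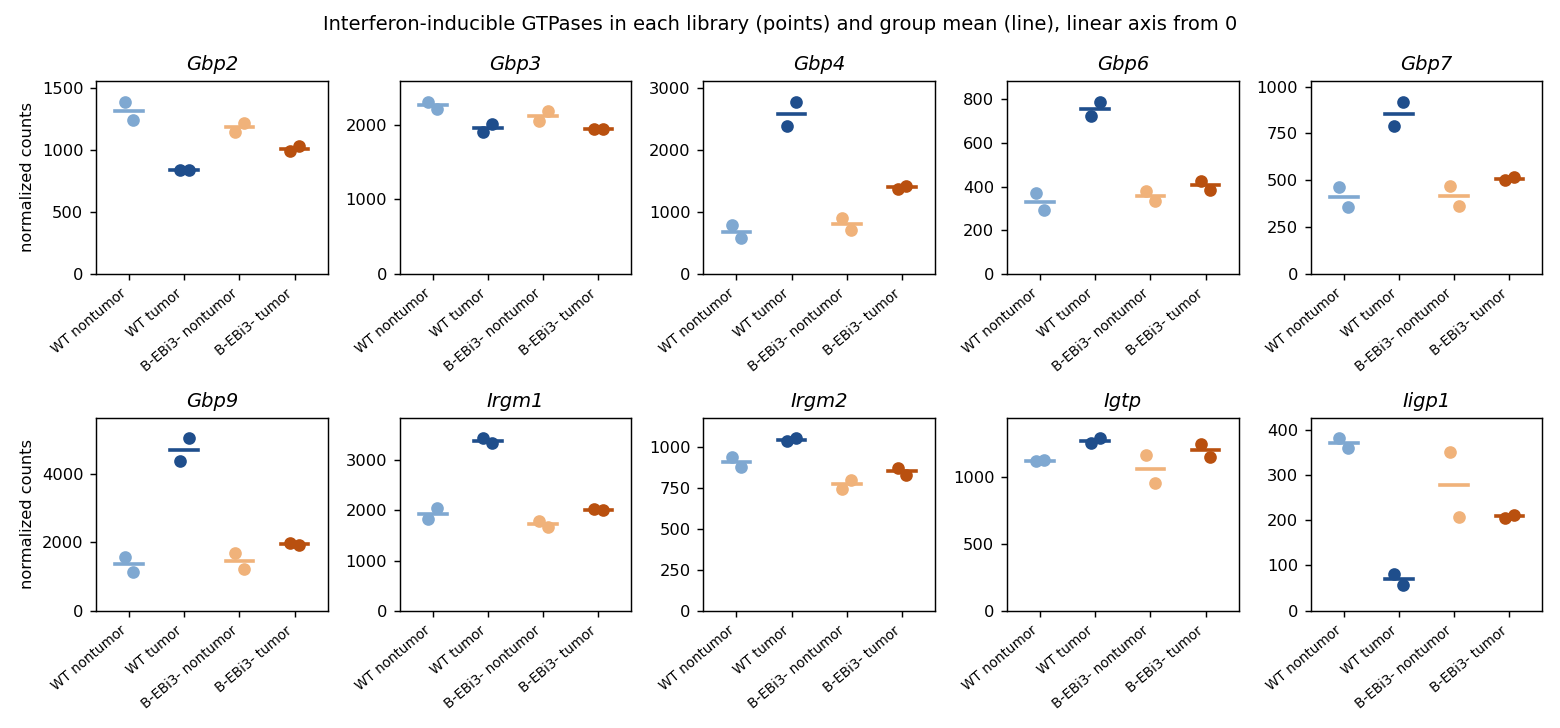
Normalized counts of each of the 10 GTPases (vertical axes, linear from 0) in the 8 libraries (points) with the mean of the 2 libraries of a group (lines). Gbp4, Gbp6, Gbp7, Gbp9 and Irgm1 were highest in both WT tumor libraries, Gbp2 and Iigp1 were lowest there, and Gbp3, Irgm2 and Igtp lay within narrow ranges.

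The tumor effect in WT asked how the GTPases of naive B cells differ when WT mice carry a tumor. Of the 10 members 6 rose, 3 fell and 1 did not pass the test, a limma adjusted p below 0.05 by Benjamini-Hochberg over all 13011 tested genes. In the same comparison 79.8% of all tested genes passed, 39.6% higher and 40.1% lower, so the count of 9 of 10 is near the background. The 2 groups did not overlap for any of the 10 members, as for 91.4% of all tested genes. The members' median log2 difference was 0.51 against 0.01 over all tested genes, and their values ran from -2.42 (Iigp1) to 1.93 (Gbp4). The members thus split, with the chromosome 5 genes rising the most and Iigp1 falling the most.

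The 3 members of the chromosome 5 cluster rose by between 2.3-fold and 3.8-fold. Gbp4 was at 797 and 572 normalized counts in WT nontumor, against 2379 and 2779 in WT tumor, 897 and 703 in B-EBi3- nontumor, and 1367 and 1426 in B-EBi3- tumor. Both WT tumor libraries were the highest, both B-EBi3- tumor libraries came next, and the 4 nontumor libraries were lowest. Its log2 difference in WT was 1.93 (SE 0.168, 3.8-fold, limma adjusted p = 1.03e-05). Gbp9 was at 1577 and 1132 in WT nontumor, against 4353 and 5024 in WT tumor, 1685 and 1219 in B-EBi3- nontumor, and 1964 and 1929 in B-EBi3- tumor. The groups did not overlap within either genotype, and the rise in WT was 1.81 on the log2 scale (SE 0.18, limma adjusted p = 2.17e-05). Gbp6 was at 370 and 291, then 722 and 789, in WT nontumor and WT tumor, and at 378 and 332, then 428 and 385, in B-EBi3- nontumor and B-EBi3- tumor. It rose by 1.2 in WT (SE 0.138, limma adjusted p = 4.94e-05). Its reads are uncertain as to their gene, since 94.4% of the 31-base words of the Gbp6 transcript also stand in other genes, nearly all of them in the gene model Gm43302, not analysed here. For Gbp4 and Gbp9 that share was 22.6% and 21.2%.

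The chromosome 3 members went both ways. Gbp7, known for assembling the oxidase that makes reactive oxygen at pathogen vacuoles, was at 466 and 357 normalized counts in WT nontumor, against 788 and 919 in WT tumor, 468 and 364 in B-EBi3- nontumor, and 503 and 515 in B-EBi3- tumor. It rose in WT by 1.06 (SE 0.161, limma adjusted p = 0.00028). Gbp2, which is recruited to the vacuole of Toxoplasma, was at 1387 and 1236 in WT nontumor, against 837 and 841 in WT tumor, 1146 and 1217 in B-EBi3- nontumor, and 990 and 1028 in B-EBi3- tumor. Both WT tumor libraries were the lowest of the 8, and Gbp2 fell by 0.64 on the log2 scale (SE 0.0842, limma adjusted p = 0.000113). Gbp3 ranged from 1906 (WT tumor) to 2312 (WT nontumor) over all 8 libraries. It fell in WT by 0.21 on the log2 scale (SE 0.0711, limma adjusted p = 0.0233), a call that ended without WT nontumor replicate 1 (adjusted p in the alternatives ran from 0.00268 to 0.135), without WT tumor replicate 1, without either B-EBi3- tumor library, with those 2 libraries averaged and in DESeq2.

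Among the immunity-related GTPases the regulator Irgm1 rose and the effector Iigp1 fell. Irgm1 was at 1827 and 2043 normalized counts in WT nontumor, against 3438 and 3346 in WT tumor, 1794 and 1668 in B-EBi3- nontumor, and 2022 and 2006 in B-EBi3- tumor. Its rise in WT was 0.81 on the log2 scale (SE 0.0788, 1.76-fold, limma adjusted p = 1.86e-05). Iigp1, on chromosome 18 (60373616-60392634), was at 381 and 359 in WT nontumor, against 81 and 57.4 in WT tumor, 350 and 206 in B-EBi3- nontumor, and 206 and 212 in B-EBi3- tumor. It was lowest in the 2 WT tumor libraries, and fell by 2.42 on the log2 scale in WT (SE 0.247, limma adjusted p = 2.45e-05), from 370 ± 15.4 to 69.2 ± 16.7. In the same comparison all 11 tested monocyte and macrophage markers fell, by a median of 3.11 on the log2 scale. All 6 granulocyte (median -4.43), 7 erythroid (-3.8) and 5 platelet markers (-2.44) fell too. So did 5 of 6 T cell and 5 of 6 NK cell markers, while of 7 B cell markers 4 rose and 2 fell. The part of these other cells in the fall of Iigp1 was not tested.

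Irgm2 and Igtp, the pair with the near-copy promoters, had small differences in WT. Irgm2 was at 939 and 882 normalized counts in WT nontumor, against 1037 and 1055 in WT tumor, 745 and 801 in B-EBi3- nontumor, and 874 and 830 in B-EBi3- tumor. It rose by 0.2 in WT (SE 0.082, limma adjusted p = 0.048), a call that was lost in 10 of 18 alternatives, among them the fits without either WT tumor library, without WT nontumor replicate 2 and without either B-EBi3- tumor library. Igtp was at 1124 and 1130, then 1258 and 1293, in WT nontumor and WT tumor, and at 1165 and 959, then 1251 and 1157, in B-EBi3- nontumor and B-EBi3- tumor. Its difference in WT was 0.18 (SE 0.101, limma adjusted p = 0.131).

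**Figure D2:**
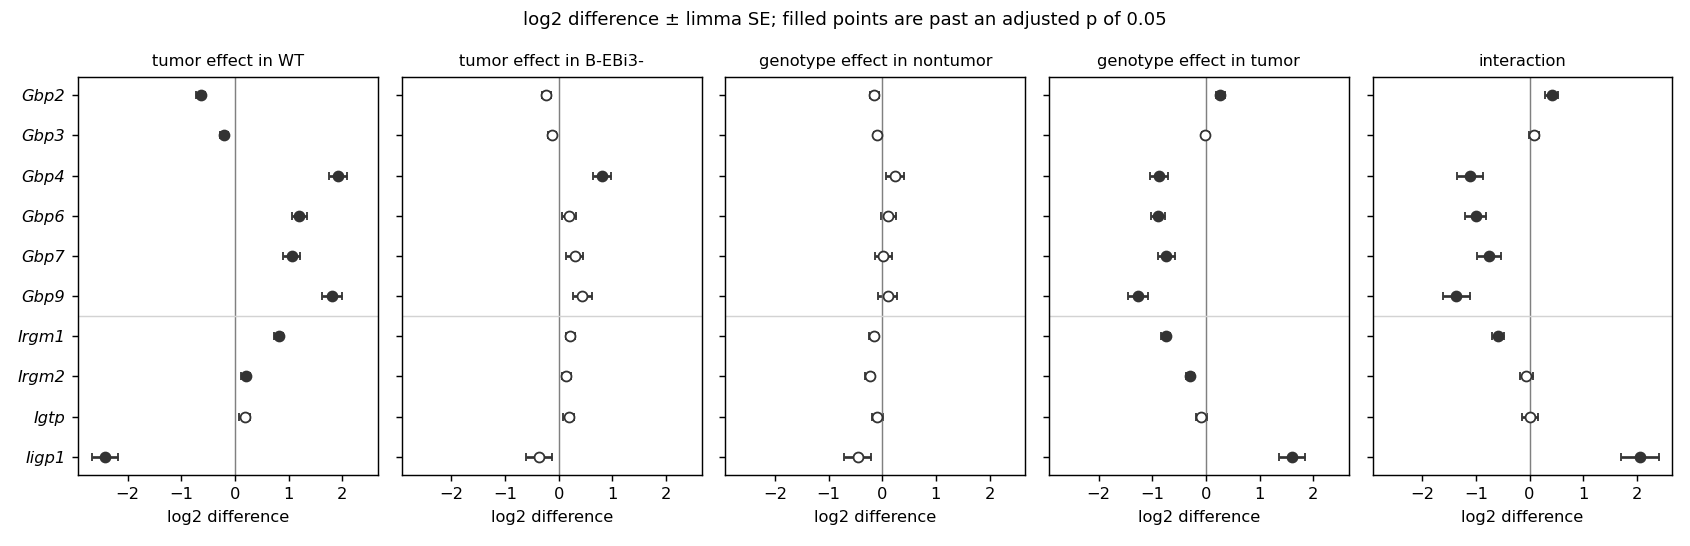
log2 differences of the 10 GTPases (horizontal axes, ± limma's standard error) in the 5 comparisons, from 2 libraries per group. Filled points are past an adjusted p of 0.05: 9 for the tumor in WT, 1 for the tumor in B-EBi3-, 0 for the genotype without and 8 for the genotype with a tumor, and 7 for the interaction.

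Transcript length moved with these differences. Across 12167 genes with an annotated transcript, which are not independent replicates, longer transcripts had higher differences in WT (Spearman's rho 0.455). The members with the longest coding transcripts, Gbp7 (5.61 kb), Gbp4 (4.54 kb) and Gbp9 (4.38 kb), were among those that rose. After correction of every library for its dependence on length and GC content, Gbp4 stood at 1.51 and Gbp9 at 1.42 in WT, and Gbp7 at 0.39 in place of 1.06. Gbp6, with a transcript of 2.6 kb, stood at 1.17 and Irgm1, at 2.26 kb, at 0.93. The falls of Gbp2 (-0.64) and Iigp1 (-2.61) were as large as before. Igtp, which had not passed, was then called higher at 0.51 (limma adjusted p = 0.00101), and Irgm2 stood at 0.03 (adjusted p = 0.742).

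**Figure D3:**
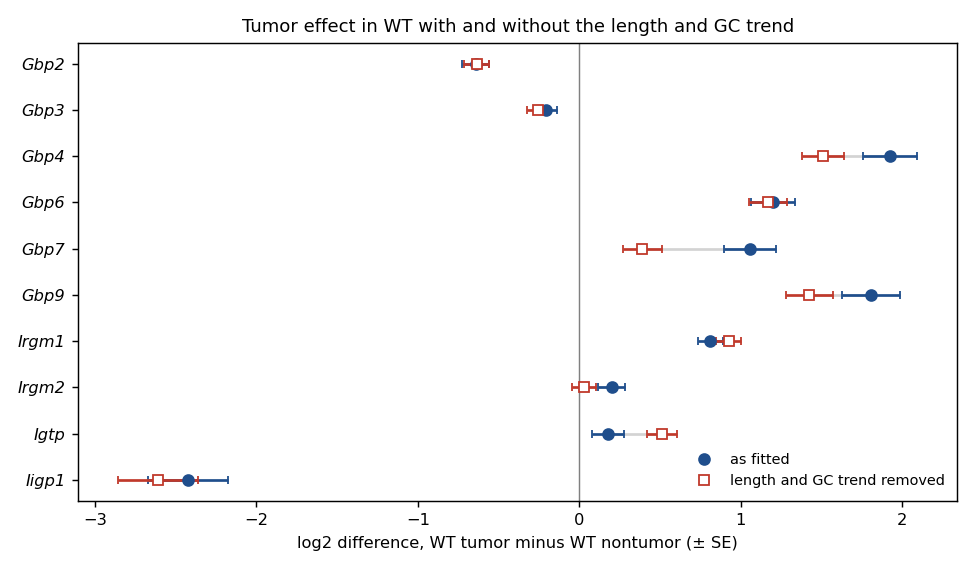
Tumor effect in WT for each GTPase (horizontal axis, log2 difference ± limma's standard error) as fitted (filled circles) and after correction of every library for length and GC content (open squares). Gbp7 moved from 1.06 to 0.39, while Gbp2 stayed at -0.64 and Iigp1 went from -2.42 to -2.61.

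Position in a cluster did not give a common direction. On chromosome 5, Gbp8 lies next to Gbp9 and fell in WT by 1.6 on the log2 scale (SE 0.115, limma adjusted p = 4.05e-06), from 602 ± 63.1 to 198 ± 17 normalized counts, where Gbp9 rose. The ratio of Gbp9 to Gbp8 counts, not scaled for length, was 2.03 to 2.44 in WT mice without a tumor and 20.8 to 27.1 in those with one. It ran from 2.64 to 3.56 in B-EBi3- nontumor and from 4.02 to 4.42 in B-EBi3- tumor. Gbp8 was also the gene that shared the most 31-base words with Gbp9, at 10.6% of those in the Gbp9 transcript. Further along, Gbp10 rose by 1.14 at a low level, from 30.4 ± 6.08 to 67.6 ± 5.69. On chromosome 3 the effects in order were 0.32 for Gbp5 (limma adjusted p = 0.0302), 1.06 for Gbp7, -0.21 for Gbp3 and -0.64 for Gbp2. Gbp5 promotes assembly of the NLRP3 inflammasome. After correction for length and GC content, Gbp7 stood at 0.39, Gbp3 at -0.26 and Gbp2 at -0.64.

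**Figure D4:**
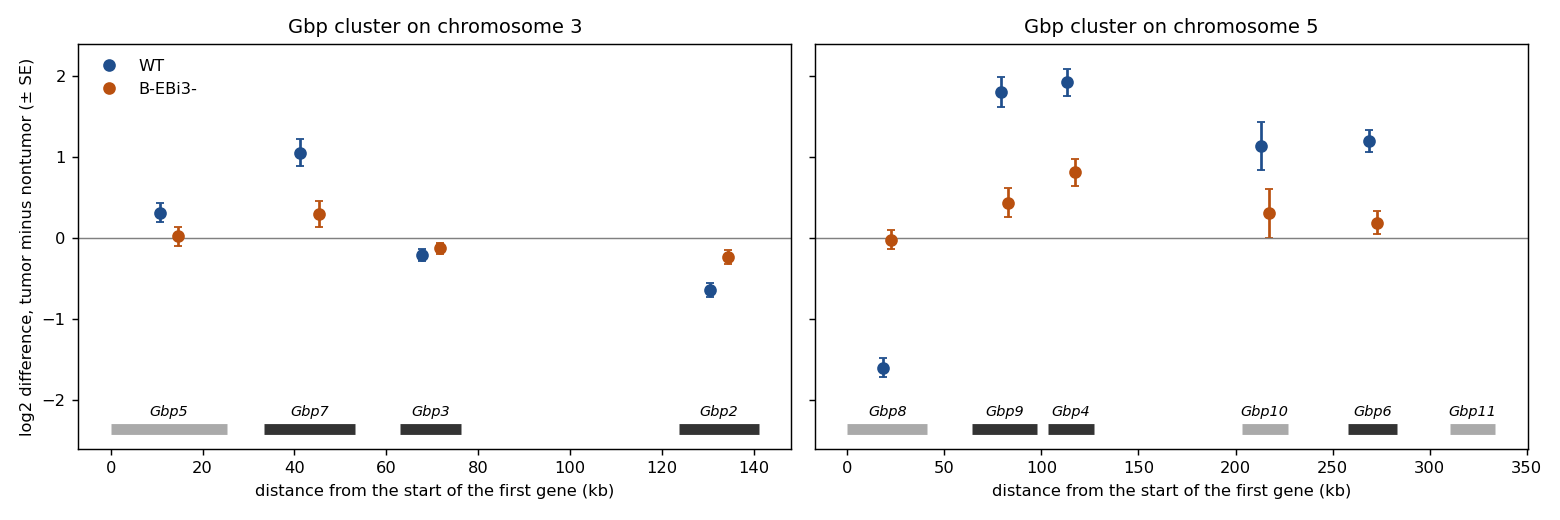
Tumor minus nontumor log2 difference (vertical axis, ± limma's standard error) of Gbp genes at their place in the chromosome 3 and chromosome 5 clusters (horizontal axis, kb from the start of the first gene), in WT and B-EBi3- mice. Bars mark the genes, dark for the followed members and grey for their neighbours, and Gbp11 was below the filter. In WT, Gbp8 stood at -1.6 beside Gbp9 at 1.81. The values shown were not corrected for length and GC content.

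Shares within the family do not depend on scaling between libraries, but they were not corrected for length and GC content. Gbp4, Gbp6 and Gbp9 made up 39.7 and 34.4% of the reads of the 6 Gbp members in WT mice without a tumor, against 67.9 and 69.5% in those with one. In B-EBi3- they made up 44.6 and 37.4% without and 52.2 and 51.7% with a tumor, so both B-EBi3- tumor libraries lay between the nontumor and the WT tumor libraries. Gbp2 and Gbp3 went the other way, from 56.5 ± 4.18% to 24 ± 1.35% in WT and from 52.4 ± 5.81% to 41 ± 0.291% in B-EBi3-. Irgm1 rose from 44.5 ± 2.47% to 58.7 ± 0.678% of the reads of the 4 immunity-related GTPases in WT, and stood at 45.1 ± 1.17% and 47.1 ± 0.897% in B-EBi3- nontumor and tumor. Iigp1 made up 8.53 ± 0.555% in WT nontumor, 1.2 ± 0.279% in WT tumor, 7.16 ± 2.09% in B-EBi3- nontumor and 4.89 ± 0.211% in B-EBi3- tumor (SD, n = 2 in each group).

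**Figure D5:**
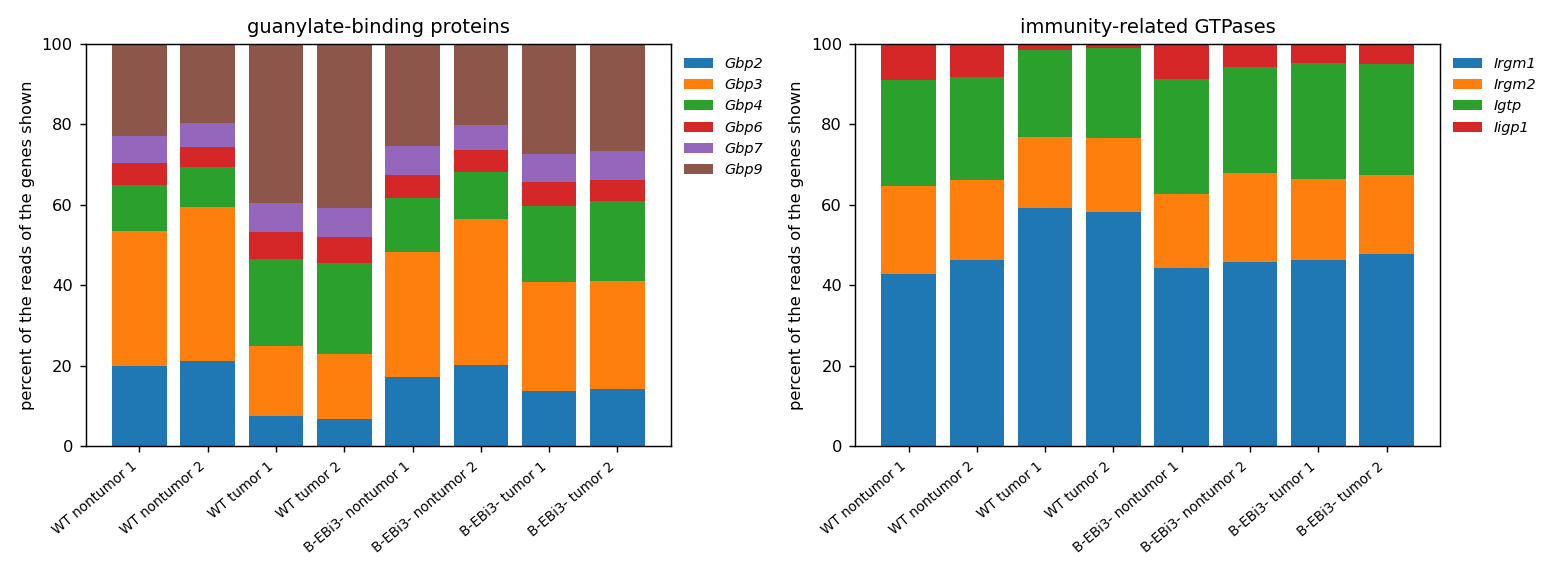
Share of each gene (vertical axis, percent) in the reads of the 6 guanylate-binding proteins and of the 4 immunity-related GTPases, in each of the 8 libraries. Gbp4, Gbp6 and Gbp9 together held 67.9 and 69.5% in WT tumor, and Iigp1 was the smallest part of its family in every library.

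The tumor effect in B-EBi3- put this question to mice whose B cells lack Ebi3, where sex and title series did not differ. Gbp4 rose, by 0.81 on the log2 scale (SE 0.168, 1.76-fold, limma adjusted p = 0.0107), and the other 9 members did not pass. In this comparison 32.6% of all tested genes passed, 14.1% higher and 18.5% lower, and the members' median was 0.19 against -0.01 over all of them. The groups did not overlap for 8 members, all but Igtp and Iigp1, and for 75.6% of all tested genes. The call of Gbp4 ended without B-EBi3- nontumor replicate 2 (log2 difference 0.64), without either B-EBi3- tumor library and with those 2 averaged. Differences in the direction seen in WT, without passing, were 0.44 for Gbp9 (SE 0.18, limma adjusted p = 0.0873), 0.22 for Irgm1 (0.0788, 0.0608), 0.3 for Gbp7 (0.161, 0.171), 0.19 for Gbp6 (0.138, 0.291), -0.23 for Gbp2 (0.0842, 0.0659) and -0.36 for Iigp1 (0.247, 0.275). The difference of Iigp1 was 0.02 without B-EBi3- nontumor replicate 1. Gbp3, Irgm2 and Igtp stood at -0.12, 0.14 and 0.19. Of the 11 monocyte and macrophage markers 9 fell here also, by a median of 0.92 over the 11. All 7 erythroid markers fell (median log2 difference -2.83), as did 4 of 6 granulocyte markers (median -2.39). Of 6 plasma cell markers 5 rose and 1 fell. The part of these other cells in the members' differences was not tested.

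The genotype effect in nontumor mice asked whether loss of Ebi3 alone goes with a difference. None of the 10 members passed in limma, nor did any of the 13011 tested genes (0%). At an unadjusted p below 0.05 stood 1049 genes (8.06%), among them 1 member, Irgm2 (-0.24, SE 0.082, adjusted p = 0.604). The groups did not overlap for 5 of the 10 members and for 31.9% of all tested genes. In edgeR 0 genes passed, and in DESeq2 21 genes but no member did. The members' differences ran from -0.46 (Iigp1, SE 0.247) to 0.23 (Gbp4, SE 0.168). All 4 immunity-related GTPases were lower in B-EBi3- without passing, at a median of -0.2 against 0.01 over all tested genes, though Igtp stood at 0.05 without B-EBi3- nontumor replicate 2.

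The genotype effect in tumor mice, B-EBi3- tumor minus WT tumor, asked the same in mice with tumors. It called 6 members lower and 2 higher, where 60.5% of all tested genes passed, 28.6% lower and 31.9% higher. The groups did not overlap for 9 of the 10 members and for 88.9% of all tested genes. It shares the WT tumor libraries with the tumor effect in WT, and so is not an independent view of them. Lower in B-EBi3- were Gbp9 (-1.26, SE 0.18, limma adjusted p = 0.000446), Gbp6 (-0.89), Gbp4 (-0.88), Irgm1 (-0.75), Gbp7 (-0.74) and Irgm2 (-0.3). Higher were Iigp1 (1.6, SE 0.247, 3.03-fold, limma adjusted p = 0.000673) and Gbp2 (0.27, SE 0.0842, limma adjusted p = 0.0232). Gbp3 stood at -0.01 and Igtp at -0.08. The calls of Gbp2 and Irgm2 ended without either WT tumor library, without either B-EBi3- tumor library and with the latter 2 averaged, and that of Gbp2 also ended in DESeq2. After correction for length and GC content the calls of Gbp7 (-0.27, limma adjusted p = 0.0926) and Irgm2 (-0.18, 0.0856) ended, and Igtp was called lower (-0.3, 0.0286). All 11 monocyte and macrophage markers were higher in B-EBi3- tumor, by a median of 2.26. All 6 granulocyte, 7 erythroid, 5 platelet and 6 NK cell markers were higher too, as were 5 of 6 T cell markers. Of 7 B cell markers 2 were higher and 4 lower. The part of these other cells in the higher Iigp1 was not tested.

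The interaction, the tumor effect in B-EBi3- minus that in WT, tests whether the tumor effects differ. It passed for 7 of the 10 members, 5 lower and 2 higher, where 52.9% of all tested genes passed, 25.4% lower and 27.5% higher. Iigp1 stood at 2.06 (SE 0.349, limma adjusted p = 0.00167) and Gbp2 at 0.41 (SE 0.119, 0.0179). Both had fallen in WT and did not pass in B-EBi3-. Gbp9 stood at -1.37 (SE 0.255, limma adjusted p = 0.00259), Gbp4 at -1.11, Gbp6 at -1.005, Gbp7 at -0.76 and Irgm1 at -0.59. All 5 had risen in WT, and of them Gbp4 passed in B-EBi3-. The calls of Gbp2 and Gbp7 were lost in 5 and 7 of 16 alternatives, each without WT tumor replicate 2, without either B-EBi3- tumor library and with those 2 averaged. The call of Gbp2 was also lost without WT tumor replicate 1, and that of Gbp7 without WT nontumor replicate 2, without B-EBi3- nontumor replicate 1 and after correction for length and GC content (-0.22).

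The pathway upstream of the GTPases did not move in 1 direction in WT. Of 12 genes of the interferon gamma receptor and its signalling 6 rose and 3 fell (median 0.21). In this comparison 79.8% of all tested genes passed, 39.6% higher and 40.1% lower, so the share called is near the background. Irf1, the transcription factor through which interferon gamma acts on many of these promoters, rose by 0.73, from 2456 ± 181 to 4064 ± 81.5. The receptor chain Ifngr1, which binds the cytokine, fell by 0.55 on the log2 scale, and Ifngr2, the signalling chain, rose by 0.36. Ciita and Nlrc5, the regulators of MHC class II and class I genes, rose by 1.52 and 2.14, and Batf2 fell by 2.85. In B-EBi3- 4 of these 12 rose and 0 fell, with Ifngr2, Ciita, Nlrc5 and Irf1 the 4. There 32.6% of all tested genes passed, 14.1% higher and 18.5% lower. Of 9 genes of the type I interferon receptor and its signalling 5 rose and 2 fell in WT, with the receptor chain Ifnar1 at 1.56 and Stat2 at 1.3.

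Other products of the same cytokines went different ways. Of 12 further interferon-inducible GTPases tested, 5 rose and 3 fell in WT (median 0.15). The very large GTPase Gvin1 rose by 3.8, from 1935 ± 130 to 27260 ± 6160 normalized counts, and the antiviral dynamin-like Mx1 and Mx2 by 2.94 and 2.58. Tgtp2 and Gm12250 (Irgb10), which like Iigp1 are immunity-related effectors, stood at 0.06 and 0.12 without passing, and Ifi47 fell by 0.2 on the log2 scale. In B-EBi3- 3 of the 12 rose and 0 fell, Gvin1 by 1.75. Of 14 tested targets of interferon gamma that are not GTPases 11 fell and 2 rose in WT (median -0.94), with the immunoproteasome subunit Psmb9 at -1.28 and the aminopeptidase Lap3 at -2.33. Of 24 type I interferon-stimulated genes 11 rose and 7 fell in WT, with the exonuclease Isg20 at -1.72 and the RNA sensor Ddx58 at 1.19. In B-EBi3- 0 of these 24 rose and 8 fell (median -0.14), and of the 14 targets of interferon gamma 1 rose and 1 fell. Of all tested genes 32.6% passed there, 14.1% higher and 18.5% lower, and 79.8% passed in WT, 39.6% higher and 40.1% lower.

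Partners that act with the GTPases at vacuoles were mostly lower in WT tumor. Of 13 genes listed as directing the GTPases to vacuoles, 10 fell and 3 rose (median -0.62). The list holds genes of ubiquitin-like conjugation, the ubiquitin ligases Traf6 and Trim21 and the adaptor Sqstm1. Gabarapl2 and Gabarap, of the Atg8 family, fell by 1.35 and 1.31 on the log2 scale, while the ubiquitin ligase Traf6 rose by 1.05. In B-EBi3- 4 fell and 2 rose. Of 8 inflammasome and cell death genes 5 fell and 2 rose in WT (median -0.68), the cytokine gene Il18 falling by 2.8 and the DNA sensor Aim2 rising by 1.04. These shares stand beside the 79.8% of all tested genes that passed in this comparison and 32.6% in B-EBi3-. Longer transcripts had higher differences in WT (Spearman's rho 0.455), and values corrected for length are given for the members only. The parts of transcript length and of RNA from macrophages and other cells in these lists of upstream genes, interferon products and partners were not tested.

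No member was the nearest neighbour in pattern of another. Likeness was measured as the root mean square difference between log2 values centred over the 8 libraries, with 11947 other tested genes as candidates. With so many candidates, a nearer gene from outside the members was likely in advance, so that outcome says little about likeness among them. Among the Gbp members the nearest gene was Pcca for Gbp2 (0.0379), Usp12 for Gbp3 (0.0205), Zfp488 for Gbp4 (0.0524), Ttc39b for Gbp6 (0.0495), Zfp738 for Gbp7 (0.0433) and Ralgapa1 for Gbp9 (0.0684). Among the others it was Lrrc58 for Irgm1 (0.0653), Aldh6a1 for Irgm2 (0.0532), Zfp119b for Igtp (0.0583) and Rhob for Iigp1 (0.111). The members' own standard deviations over the libraries were 0.774 for Gbp4, 0.74 for Gbp9, 0.0951 for Gbp3 and 0.94 for Iigp1. The closest members were Gbp6 and Gbp7 (0.0939), which lie on different chromosomes, and the farthest were Gbp4 and Iigp1 (1.67).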

How the data were processed

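Per the labels' protocols, RNA of spleen B cells was extracted with the RNeasy Plus Mini kit and sequenced from stranded mRNA libraries with paired ends. The submitters' processing notes name Salmon, DESeq2 and mm10, without versions. The table deposited by the authors holds a normalized count (signal) for every gene symbol in every library. Dividing each library by its step gave whole reads for 100% of the values above 0 (tolerance 0.01). Genes with a mean of at least 10 were tested as log2(value + 1), so fold changes of low genes are understated. All 4 group means were estimated together by limma 3.58.1 (R 4.3.3) using a mean-variance trend, with 4 residual and 4.64 prior degrees of freedom, and two-sided p-values were Benjamini-Hochberg adjusted. Nothing in the labels ties a library to an animal, so the p-values reflect how much these libraries vary, which may be technical.

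The members and lists were chosen with earlier results of these data known. All members are named in every comparison, with up to 4 genes per list by smallest p, beside others chosen after their values were seen (Irf1, Ifngr1, Ifngr2, Gbp5, Gbp10, Tgtp2, Gm12250 and Ifi47). For each member the gene nearest in pattern was found, leaving out gene models and pseudogenes. Length and GC content came from the longest coding GENCODE vM21 transcript (GRCm38, 93.5% of tested genes matched) and were fitted per library with natural splines of 5 degrees of freedom. Alternatives were a pseudocount of 5, no filter, a stricter minimum of 50, quantile normalization, correction for that dependence, count tests of the recovered reads by edgeR 4.0.16 and by DESeq2 1.42.0, each library left out, the B-EBi3- tumor libraries averaged (their counts differed by a chi-square per degree of freedom of 2.03, against 13.7 to 20.4 in the other groups) and a block. In counts simulated for the tumor effect in WT with 200 of 13011 genes changed 2-fold, 80% were recovered and 9.6% of the calls were false. That false share is above the 0.05 of the threshold. The simulated counts held no length trend and far fewer changed genes than the 79.8% called in the libraries, so these rates do not carry over.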

Additional observations from a re-analysis of the deposited data

Results flagged for a closer look

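The tumor effects in the 2 genotypes differed by the interaction test in 7 members (tumor effect in B-EBi3- minus that in WT, log2). The difference was 2.06 for Iigp1, 0.41 for Gbp2, -1.11 for Gbp4, -1.005 for Gbp6, -0.76 for Gbp7, -1.37 for Gbp9 and -0.59 for Irgm1. The comparison carries the sex and title series of the WT tumor libraries, whose part cannot be told apart from the tumor, and 52.9% of all tested genes passed it.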

How the results depend on the processing

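Of 820 values of members under the alternatives, 740 kept their direction and their side of the threshold, 45 were no longer past it, 16 newly passed it and 19 changed sign, in none of which the member was called with or without the alternative. With quantile normalization the changed signs were Gbp7 in the genotype effect in nontumor (-0.021), Gbp3 in the genotype effect in tumor (0.11) and Irgm2 in the interaction (0.0123). After correction for length and GC content they were the same 3 (-0.0465, 0.0142 and 0.104) and Igtp in the interaction (-0.23). The other 12 came with 1 library left out. In the genotype effect in nontumor Gbp4 then ranged from -0.00549 to 0.472, Gbp6 from -0.0615 to 0.285, Gbp7 from -0.175 to 0.21, Gbp9 from -0.138 to 0.34 and Igtp from -0.233 to 0.0482. Gbp3 ranged from -0.0459 to 0.0311 in the genotype effect in tumor, Iigp1 from -0.742 to 0.0182 in the tumor effect in B-EBi3- and Igtp from -0.13 to 0.15 in the interaction. The count of members called in the tumor effect in B-EBi3-, 1 as reported, was 3 after correction for length and GC content, 2 in DESeq2 and 0 with the B-EBi3- tumor libraries averaged, and ranged from 0 to 4 with 1 library left out (0 without B-EBi3- nontumor replicate 2 or either B-EBi3- tumor library, 4 without either WT nontumor library or B-EBi3- nontumor replicate 1). The cause was not tested. Over all genes the calls of that comparison went from 4242 to 736 with those libraries averaged, 1213 without B-EBi3- nontumor replicate 2 and 788 and 756 without B-EBi3- tumor replicates 1 and 2. Those of the interaction went from 6881 to 4501 with the same correction, over 12167 genes. In the genotype effect in nontumor, 0 as reported, 21 genes passed in DESeq2 and 1 to 5 in 4 other alternatives, none a member.

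Only the WT groups share title numbers. Differences between their libraries 7 and 8 correlated at -0.256 across genes, and with 2 pairs the numbers do not show a pairing. With the title number as a replicate block, 8 members and 10158 genes were called in the tumor effect in WT. With the numbers crossed, chosen after seeing the data, 9 members and 10519 genes were called. With 2 libraries per group, spread within a group rests on few degrees of freedom.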
